A study of Mus musculus with 9 samples.

Results

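The lungs of the inbred mouse strains BL6 and FVB/N were compared over 3 arrays of each strain, 6 of the 9 arrays of the series. The arrays of each strain were taken by their titles. Each array carried total RNA from the right lung. The BL6 set held hypoxic arrays 2 and 5 and normoxic array 1, and the FVB/N set held hypoxic arrays 2 and 6 and normoxic array 1. Hypoxic mice of either strain (BL6 is given as C57/BL6) spent 4 weeks at a lowered air pressure of 50 kPa. Normoxic mice were kept for 4 weeks at the pressure of Denver, 85 kPa, which is itself below that at sea level. No transgene, deletion or drug was used. The labels give no age and do not say whether an array stands for 1 mouse or for a pool, so each p-value reflects the scatter among these arrays alone, which may be technical. The 3 SV129 arrays, also 2 hypoxic and 1 normoxic, shared the estimate of the spread and are given beside the values.

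Inbred strains are fixed for different alleles at a large share of their genes. Some of these alleles remove a gene or silence its promoter, and then the transcript is close to background in every tissue of one strain. Others change the number or the state of cells in a tissue, and then groups of genes that mark a cell type move together. In homogenised lung, fewer cells of a type and less RNA per cell cannot be told apart. A sequence variant under an array probe and a lower amount of transcript cannot be told apart either.

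Levels are log2(signal + 16) after quantile normalization, so that a signal of 0 has a level of 4 and folds of dim genes are understated. Differences are BL6 minus FVB/N on that log2 scale, with condition as a covariate. A gene was read through its brightest probe set and called where the limma adjusted p was below 0.05 over all 27023 probe sets tested. The gene and marker lists used below were chosen with earlier results of these data known. A share of called members above that of all genes is therefore not read as a result about a list. The arrays correlated with each other at 0.842 to 0.975. The lung identity held on every array, with the alveolar type 2 list at mean levels from 12.4 to 13.2 and the alveolar type 1 list from 12.4 to 13.2. Over 24 kidney genes, the mean level reached 12.07 on normoxic FVB/N array 1 and 10.97 on hypoxic BL6 array 2, while the other 7 lay at 5.62 to 6.27. Normoxic FVB/N array 1 also had the joint list of brown fat and fast muscle genes at a mean of 9.89, against 5.93 to 7.04 elsewhere. The muscle genes Myh1 and Myh2 read 12.34 and 10.10 on it, and the brown fat genes Ucp1 and Cidea 4.54 and 4.34. The strain difference of each gene and list was therefore computed a second time over the 7 arrays without normoxic FVB/N array 1 and hypoxic BL6 array 2. The 3-prime to 5-prime log2 ratios of the control probe sets lay between -0.31 and 0.07 for Gapdh and between 0.22 and 0.51 for Actb on the 6 arrays.

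Of 12895 genes, 281 (2.18%) differed between the strains. Of these, 213 (1.65%) were higher in BL6 and 68 (0.527%) were higher in FVB/N. Over probe sets the count was 561 (2.08%), with 412 (1.52%) higher in BL6 and 149 (0.551%) higher in FVB/N. Of the called probe sets 73.4% were higher in BL6, and 59.7% without normoxic FVB/N array 1. The median difference over all probe sets was -0.01, a value that the scaling of the arrays fixes near 0. Over all genes 48.5% of differences were above 0. The median size of a called difference was 1.50, 78 genes differed by more than 2 log2 units and 46 by less than 1. Without both kidney-bearing arrays 334 probe sets (1.24%) were called, 225 (0.833%) higher in BL6 and 109 (0.403%) higher in FVB/N. In both fits 271 (1.00%) were called in the same direction, 194 (0.718%) higher in BL6 and 77 (0.285%) higher in FVB/N. Of genes, 144 (1.12%) passed in both fits, 105 (0.814%) higher in BL6 and 39 (0.302%) higher in FVB/N. The 3 BL6 arrays lay apart from the 3 FVB/N arrays in 2051 genes (15.9%), 1227 (9.52%) higher in BL6 and 824 (6.39%) higher in FVB/N, and 277 (2.15%) of all genes were both apart and called. The 28 genes with the largest differences were taken from the 105 (0.814%) higher in BL6 and the 38 (0.295%) higher in FVB/N that passed in both fits without overlap.

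**Figure D1:**
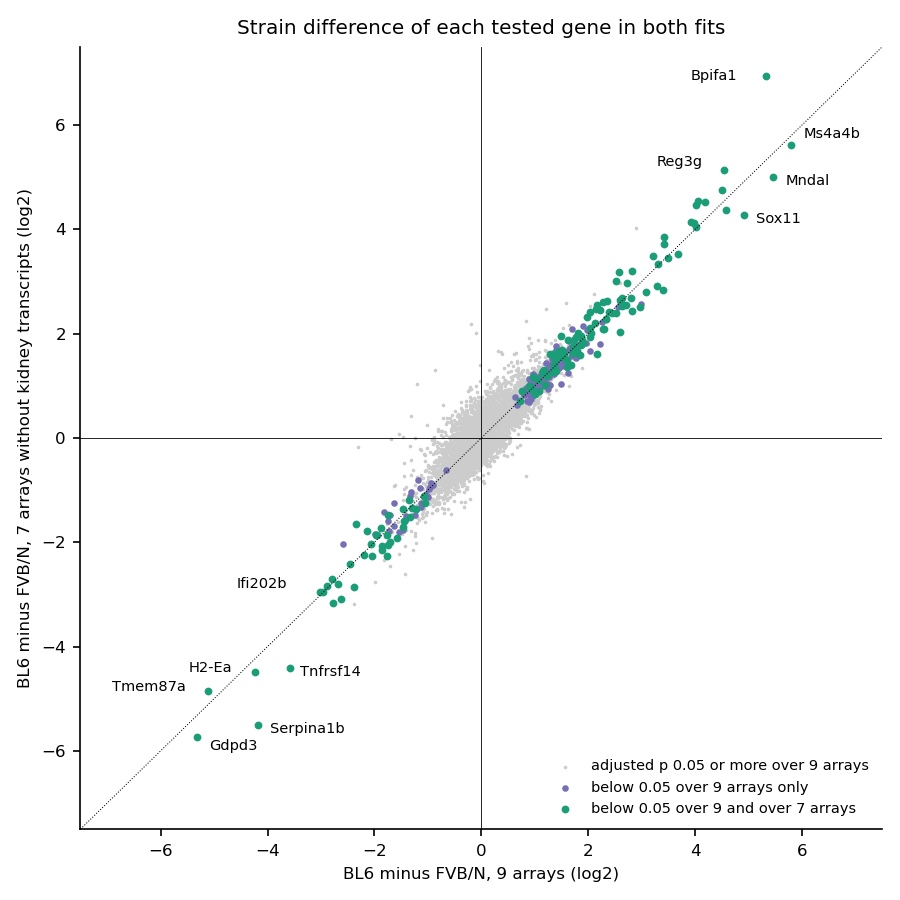
Strain difference of each of the 12895 tested genes, BL6 minus FVB/N in log2 units, over 9 arrays (x axis) and over the 7 arrays without kidney transcripts (y axis). Green points are the 144 genes called in both fits and lie along the dotted line of equal values, from Gdpd3 at the lower left to Ms4a4b and Bpifa1 at the upper right.

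The class II genes of the major histocompatibility complex gave the clearest opposed pair. These genes encode alpha and beta chains that pair to present peptides to CD4 T cells, and H2-Ea and H2-Eb1 encode the chains of the I-E molecule. As background, BL6 and 129 strains carry the b haplotype of the complex, in which H2-Ea is silent through a deletion, while FVB/N carries the q haplotype. H2-Eb1 read 13.37, 13.37 and 13.21 on hypoxic BL6 arrays 2 and 5 and the normoxic BL6 array. It read 8.63, 9.10 and 8.44 on hypoxic FVB/N arrays 2 and 6 and the normoxic FVB/N array. All 3 FVB/N arrays were thus far below all BL6 arrays, and the SV129 arrays, at 12.75 to 13.17, lay with BL6. The difference was 4.59 ± 0.19 (SE, n = 3 per strain; limma adjusted p = 1.11e-05) and 4.37 over 7 arrays.

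H2-Ea went the other way. It read 4.87, 5.25 and 5.08 in BL6, close to the level of an empty signal, and 9.79, 9.92 and 8.19 in FVB/N. The SV129 arrays read 4.98, 5.53 and 4.68, so that FVB/N alone of the 3 strains had a clear H2-Ea signal. Whether FVB/N lung makes an I-E molecule from this transcript was not tested. The difference was -4.23 ± 0.36 (SE, n = 3 per strain; limma adjusted p = 0.000462), and -4.49 over 7 arrays. H2-Aa, the alpha chain of I-A, was higher in BL6 by 1.01 (limma adjusted p = 0.00638), with BL6 at 13.63 to 13.92 and FVB/N at 12.44 to 13.13. Its other probe sets differed among themselves: 2 of them gave 3.93 and 3.08, and the third gave -1.20 and did not pass. Of 11 class II pathway genes tested, 3 were higher in BL6 (H2-Eb1, H2-Aa and the invariant chain protease Ctss, by 0.94) and 1 was higher in FVB/N (H2-Ea), against a background of 2.18% called. The list was chosen with earlier results of these data known, so nothing is read from that share. Its median was 0.47 over 9 arrays and 0.19 over 7. The I-A beta chain H2-Ab1 (0.40, limma adjusted p = 0.592), the invariant chain Cd74 (0.22, limma adjusted p = 0.566) and the peptide exchange factor H2-DMa (0.47, limma adjusted p = 0.396) did not pass. H2-Eb2 was below the brightness limit and was not tested, at 6.69, 6.76 and 6.93 in BL6 and 4.44, 4.66 and 4.40 in FVB/N.

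The promoters of H2-Eb1 and H2-Aa are shown because these neighbours on chromosome 17 were both higher in BL6. Each is 300 bases long, 250 before and 50 after the RefSeq start, on build GRCm38.p6, which is a BL6 sequence. H2-Eb1 lies at chr17:34305617-34305916 on the plus strand and H2-Aa at chr17:34287774-34288073 on the minus strand. Capitals mark 2 short motifs searched on both strands, CTGATTGG, the core of the class II Y box, and CTNGCAAC, the start of the X box.
H2-Eb1: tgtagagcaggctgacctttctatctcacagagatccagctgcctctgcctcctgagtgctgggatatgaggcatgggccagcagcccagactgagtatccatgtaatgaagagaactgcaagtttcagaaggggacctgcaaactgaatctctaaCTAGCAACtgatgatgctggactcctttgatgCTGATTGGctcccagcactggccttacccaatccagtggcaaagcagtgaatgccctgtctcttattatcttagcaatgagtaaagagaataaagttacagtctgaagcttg
H2-Aa: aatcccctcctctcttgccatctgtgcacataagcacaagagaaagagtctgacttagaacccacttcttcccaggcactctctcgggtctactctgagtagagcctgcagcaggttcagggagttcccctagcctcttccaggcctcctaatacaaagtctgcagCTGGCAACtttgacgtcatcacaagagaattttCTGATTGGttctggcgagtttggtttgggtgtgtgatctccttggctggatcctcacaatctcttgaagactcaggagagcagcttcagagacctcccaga
In H2-Eb1 the X box letters begin 94 bases and the Y box letters 62 bases before the start, and in H2-Aa they begin 84 and 51 bases before it. CTGATTGG was found in 4.10% of 32841 promoters of this length, CTNGCAAC in 3.43% and both together in 0.18%. The sequence of the FVB/N allele was not used here, and a match is a description of letters only. H2-Ea and H2-Ab1 are not shown.

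The Ifi200 family, a cluster on chromosome 1 that encodes DNA-binding proteins induced by interferon, split in the same manner. Mndal read 11.35, 11.30 and 11.79 in BL6 and 6.62, 5.84 and 5.57 in FVB/N, a difference of 5.47 ± 0.31 (SE, n = 3 per strain; limma adjusted p = 5e-05). SV129 read 10.51 to 11.32, near BL6. A second Mndal probe set gave 6.27 and passed too. Ifi213 was higher in BL6 by 2.16 (limma adjusted p = 0.00793), with BL6 at 8.52 to 9.52 and FVB/N at 6.56 to 7.06. SV129 lay lower still, at 5.30 to 6.07.

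Ifi202b, a member known to be silent in BL6, read 4.24, 4.22 and 4.62 in BL6 and 7.46, 7.26 and 7.42 in FVB/N. The difference was -3.02 ± 0.24 (SE, n = 3 per strain; limma adjusted p = 0.000334), and SV129 read 7.03 to 7.30. Ifi204 was below the brightness limit, at 5.26 to 5.86 in BL6 and 7.26 to 7.46 in FVB/N. Of the 5 family members tested, 2 were higher in BL6, 1 was higher in FVB/N and 2 did not pass, against 2.18% called over all genes. Earlier results of these data were known when this family was chosen, so nothing is read from its share. Family members share sequence, and the Mndal and Ifi202b probe sets are of the kinds that can bind related transcripts, so their assignment to a single gene is uncertain.

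The promoters of Mndal and Ifi202b are given because the genes differ in opposite directions. Mndal has its first start within chr1:173880138-173880437 and Ifi202b its start within chr1:173982795-173983094, both on the minus strand of GRCm38.p6. Capitals mark matches to GAAA followed by any pair of bases and GAAA, a motif of interferon response elements, on either strand.
Mndal: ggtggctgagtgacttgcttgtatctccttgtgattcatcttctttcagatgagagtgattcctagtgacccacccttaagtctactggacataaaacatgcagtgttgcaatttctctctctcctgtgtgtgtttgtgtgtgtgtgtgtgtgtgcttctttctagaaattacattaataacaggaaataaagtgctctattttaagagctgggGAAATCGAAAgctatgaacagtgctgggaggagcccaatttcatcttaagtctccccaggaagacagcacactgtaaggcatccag
Ifi202b: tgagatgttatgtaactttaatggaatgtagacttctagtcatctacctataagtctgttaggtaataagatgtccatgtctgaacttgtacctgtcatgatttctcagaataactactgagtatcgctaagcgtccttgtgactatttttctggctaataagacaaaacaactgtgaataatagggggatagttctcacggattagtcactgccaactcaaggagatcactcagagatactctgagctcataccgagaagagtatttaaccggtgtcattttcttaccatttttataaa
The Mndal window shown held a match beginning 36 bases before the start. A second Mndal start, with the window chr1:173879909-173880208, is not shown. It held a match on the other strand, 54 bases before that start. More sequence was thus searched for Mndal than for Ifi202b. The Ifi202b window held none, which says only that these letters are not in this window. Of all promoters of this length, 3.44% held a match.

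**Figure D2:**
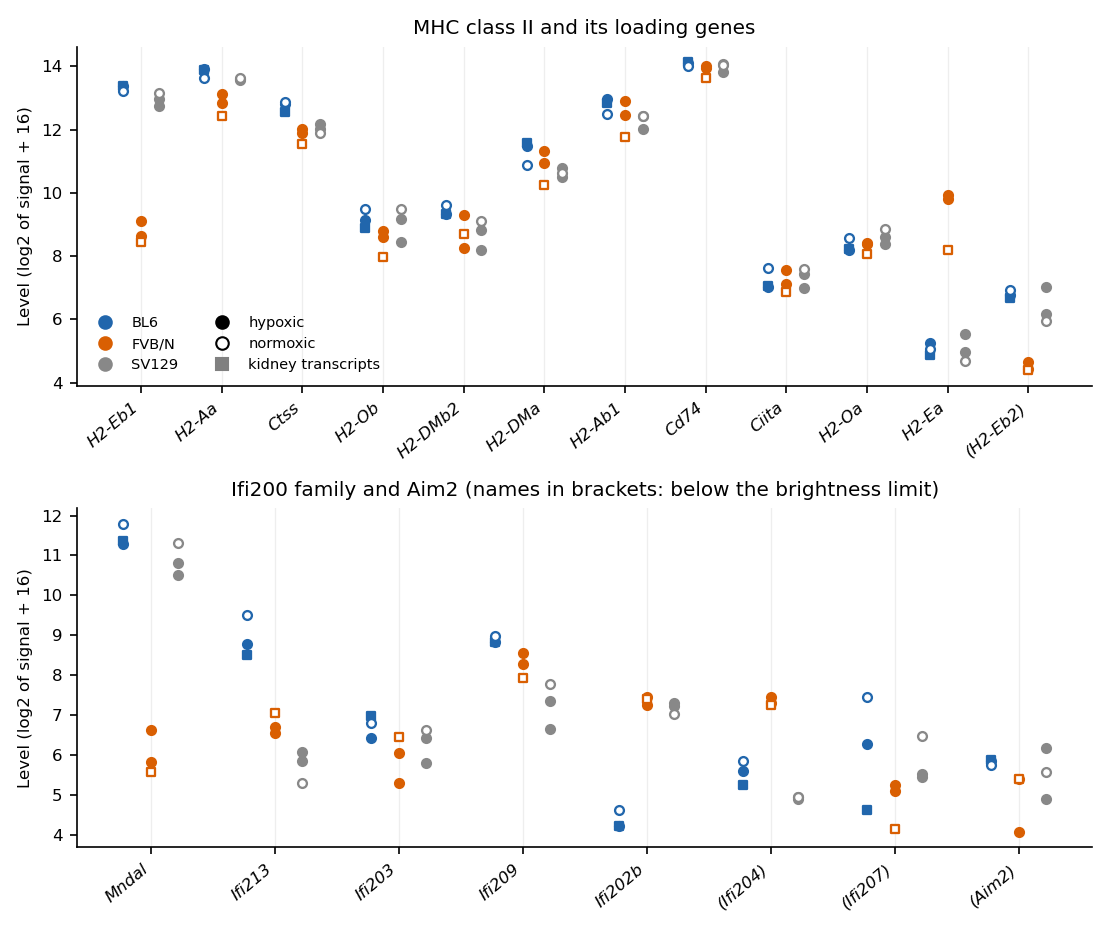
Level on each of the 9 arrays (y axis, log2 of signal + 16) for the class II list (top) and the Ifi200 family with Aim2 (bottom). Circles are arrays, squares the arrays with kidney transcripts, filled marks hypoxic and open marks normoxic. H2-Eb1, Mndal and Ifi213 are high in BL6 (blue) and low in FVB/N (orange), and H2-Ea and Ifi202b the reverse.

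Airway secretory genes were the cell-type group with the largest median difference among the marker lists. These cells line the conducting airways and release mucins, secretoglobins and antimicrobial proteins. Of 13 genes tested, 7 were higher in BL6 and none in FVB/N, against 2.18% called over all genes. All 7 also passed over 7 arrays, and the median was 2.39 over 9 arrays and 2.03 over 7. Since the list was chosen with earlier results of these data known, nothing is read from its share of called genes. Bpifa1, an abundant secreted protein of the upper airways, read 7.89, 11.44 and 13.75 on hypoxic BL6 arrays 2 and 5 and the normoxic BL6 array. It read 5.22, 4.93 and 6.97 in FVB/N. The BL6 arrays lay above all FVB/N arrays but spread over nearly 6 log2 units, with the array that carries kidney transcripts the lowest. The difference was 5.32 ± 0.93 (SE, n = 3 per strain; limma adjusted p = 0.0195) and 6.95 over 7 arrays.

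Its neighbour on chromosome 2, Bpifb1, a related protein, read 8.36, 9.65 and 12.01 in BL6 and 4.67, 6.27 and 6.94 in FVB/N, a difference of 4.05 ± 0.54 (SE, n = 3 per strain; limma adjusted p = 0.00495). Reg3g, a lectin that kills Gram-positive bacteria, read 7.60, 10.36 and 10.90 in BL6 and 5.15, 5.60 and 4.49 in FVB/N. That difference was 4.54 ± 0.73 (SE, n = 3 per strain; limma adjusted p = 0.0131). Scgb3a1, a secretoglobin of the larger airways, read 12.12, 13.26 and 13.78 in BL6 and 7.16, 9.82 and 10.14 in FVB/N. The order of the arrays within BL6 was the same for these 4 genes, hypoxic array 2 lowest and the normoxic array highest. The mucin genes Muc5b (2.64) and Muc4 (2.61) and the surface protein gene Lypd2 (2.39) were also higher in BL6.

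No call was made for the main products of the club cell. Scgb1a1 was at the top of the scale on every array, 14.91 to 15.06, and its difference was -0.05 (limma adjusted p = 0.893). Scgb3a2 (0.26, limma adjusted p = 0.333) and Cyp2f2 (0.36, limma adjusted p = 0.145), a cytochrome of these cells, did not pass, although their BL6 arrays lay above their FVB/N arrays. The mean level of the whole list was 9.76, 10.53 and 11.04 on the BL6 arrays and 8.25, 8.62 and 8.60 on the FVB/N arrays. SV129, at 8.44 to 8.91, lay beside FVB/N. Tff2, Agr2 and Spdef were below the brightness limit. Of these, Tff2 read 7.51, 8.06 and 8.53 in BL6 and 4.29, 6.05 and 5.09 in FVB/N.

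Ciliated cell genes, which build the motile cilia that clear mucus, lay above 0 for 18 of 18 genes tested, with a median of 0.84 over 9 arrays and 0.74 over 7. Of the 18 genes 1 passed, near the 2.18% called over all genes for a list of this size. That gene was Cfap52, an axonemal protein (1.81 ± 0.26 SE, n = 3 per strain; limma adjusted p = 0.00674). It read 8.24 to 8.77 in BL6 and 6.33 to 6.99 in FVB/N. A second Cfap52 probe set gave 1.16 (limma adjusted p = 0.14) and did not pass. Foxj1, the regulator of cilia formation, had a difference of 1.08 (limma adjusted p = 0.0724). The mean level of the list was 8.26, 8.57 and 8.80 in BL6 and 7.60, 8.03 and 7.32 in FVB/N, without overlap. How far the sampled airway differed between the right lungs was not tested.

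Among alveolar macrophage genes, the resident phagocytes of the air space, 6 of 16 were higher in BL6 and none in FVB/N, against 2.18% over all genes. All 16 differences were above 0, with a median of 0.90 over 9 arrays and 0.94 over 7. As with the airway list, known results entered the choice of members, so nothing is read from the share called. Chil3, a chitinase-like lectin made in bulk by these cells, read 13.02, 13.39 and 13.54 in BL6 and 11.25, 11.19 and 11.13 in FVB/N. Its difference was 2.13 ± 0.14 (SE, n = 3 per strain; limma adjusted p = 0.000119). Marco, a scavenger receptor, read 7.24, 7.17 and 8.12 in BL6 and 4.43, 4.46 and 6.11 in FVB/N, a difference of 2.51 ± 0.32 (SE, n = 3 per strain; limma adjusted p = 0.00416). SV129 was higher than both, at 9.75 to 9.84. A second Marco probe set gave 1.53 (limma adjusted p = 0.0943) and did not pass.

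Mrc1 (0.88), Cd68 (1.02), Plet1 (0.95) and Ctsk (0.89) passed over 9 arrays but not over 7, so that 2 of the 6 held in both fits. Siglecf, the defining surface lectin of these cells, had a difference of 1.24 (limma adjusted p = 0.0595) without overlap between the strains. The mean level of the list was 10.45, 10.53 and 10.89 in BL6 and 9.47, 9.58 and 9.77 in FVB/N, and SV129 read 10.60 to 10.78, beside BL6. Retnla, a secreted product of alternatively activated macrophages and airway cells, was higher in BL6 by 1.60 (limma adjusted p = 0.00957).

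**Figure D3:**
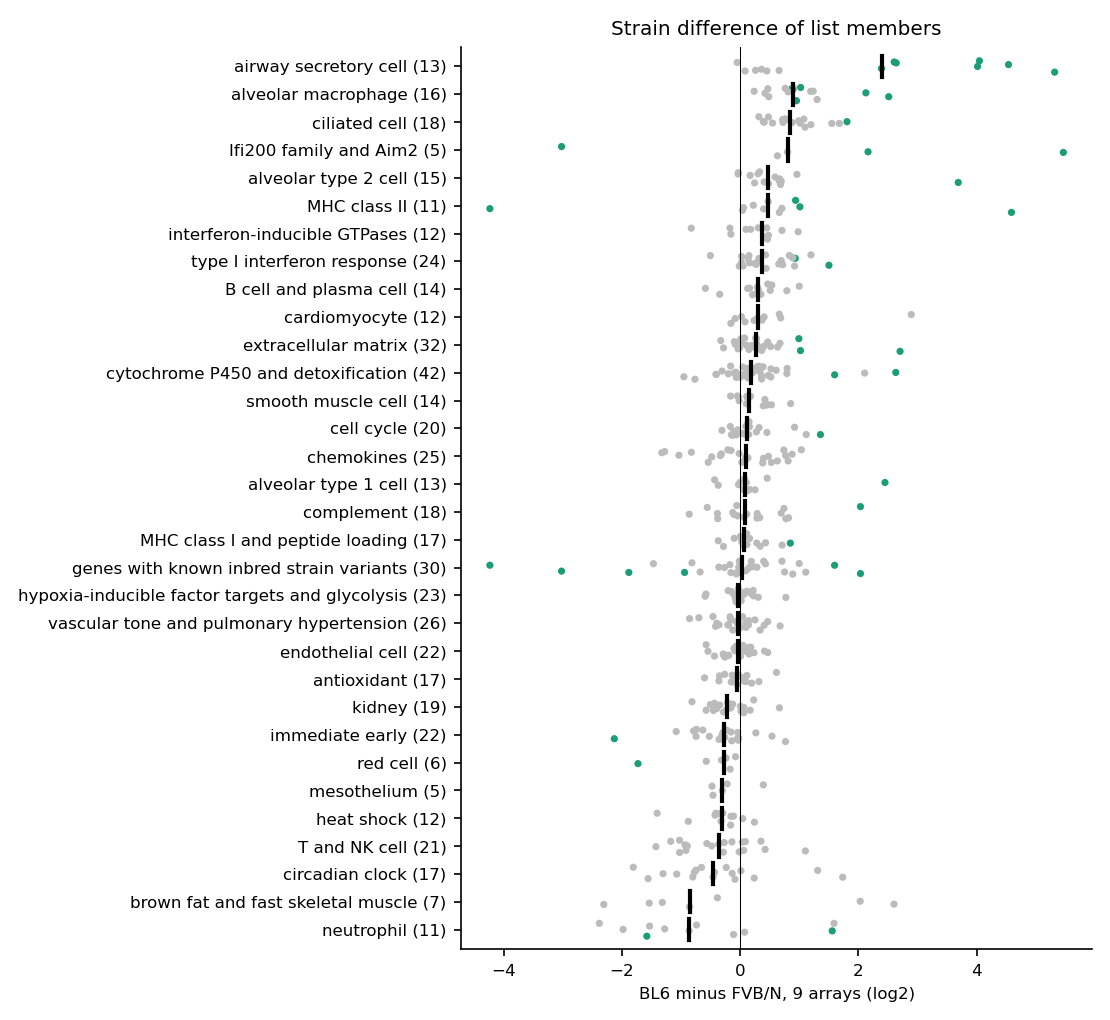
Difference of each tested list member, BL6 minus FVB/N over 9 arrays in log2 units (x axis), for lists of 5 or more tested genes (the number tested in brackets). Green points passed an adjusted p of 0.05, grey points did not, and black bars are medians; the airway secretory list has the highest median, 2.39, and the neutrophil list the lowest, -0.86.

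Of the alveolar epithelial genes 1 passed in each list, near the 2.18% called over all genes for lists of this size. The type 2 list as a whole lay apart between the strains. Its mean level was 13.17, 13.11 and 13.04 in BL6 and 12.36, 12.62 and 12.37 in FVB/N, and 13 of its 15 genes had a difference above 0, 8 of them without overlap, beside 9.52% of all genes without overlap in that direction. Chil1, a chitinase-like protein listed for type 2 cells, read 13.40, 13.59 and 13.58 in BL6 and 10.09, 10.19 and 9.22 in FVB/N, a difference of 3.69 ± 0.20 (SE, n = 3 per strain; limma adjusted p = 4.63e-05). SV129 lay at 10.38 to 10.79. It was the 1 called gene of 15 type 2 genes, whose median was 0.48 over 9 arrays and 0.44 over 7, and surfactant genes such as Sftpc (-0.04, limma adjusted p = 0.935) and Sftpb (0.59, limma adjusted p = 0.417) did not pass. Gprc5a, an orphan receptor of the alveolar epithelium, was the 1 called gene of 13 type 1 genes. It read 13.15, 13.23 and 12.95 in BL6 and 10.69, 10.89 and 10.41 in FVB/N, a difference of 2.45 ± 0.24 (SE, n = 3 per strain; limma adjusted p = 0.000963). Ager, the receptor that marks type 1 cells, gave 0.07 (limma adjusted p = 0.879).

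Neutrophil genes pointed to FVB/N for the most part, with a median of -0.86 over 11 genes. Of these 2 passed, 1 in each direction, beside 2.18% called over all genes. Csf3r, the receptor for granulocyte colony-stimulating factor, was higher in FVB/N (-1.58 ± 0.26 SE, n = 3 per strain; limma adjusted p = 0.0144), at 9.51 to 9.98 against 7.88 to 8.41 in BL6. Lcn2, an iron-binding defence protein that airway cells also make, was higher in BL6 by 1.56 (limma adjusted p = 0.00763; 0.0592 over 7 arrays). The calprotectin subunits S100a8 (-1.98, limma adjusted p = 0.0663) and S100a9 (-2.38, limma adjusted p = 0.09) did not pass over 9 arrays, although no BL6 array reached the FVB/N range. Over 7 arrays S100a8 passed, at -2.76 (limma adjusted p = 0.0255).

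None of 21 T and NK cell genes passed, and their median was -0.36 over 9 arrays and -0.83 over 7. The list read 7.88, 7.94 and 8.02 in BL6 and 8.23, 8.39 and 7.60 in FVB/N, the last being the array with kidney and muscle transcripts. Cd4 (-2.62, limma adjusted p = 0.0182) and Il7r (-1.23, limma adjusted p = 0.0457) passed over the 7 arrays only. No gene passed in the B cell, endothelial or smooth muscle lists, of 14, 22 and 14 genes. For lists of this size, the T and NK cell list included, that is near the 2.18% called over all genes.

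**Figure D4:**
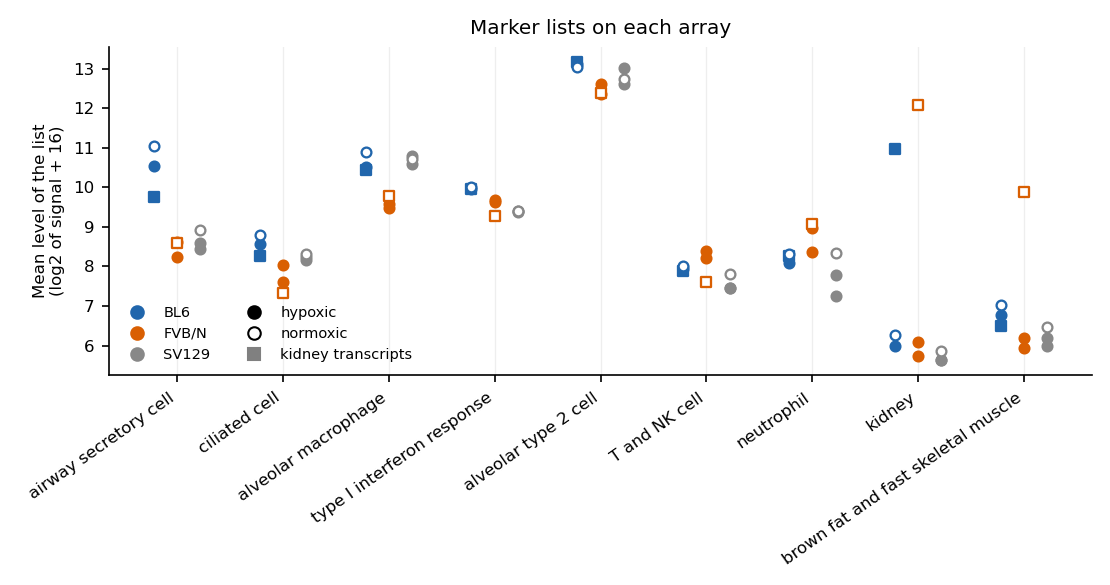
Mean level of 9 marker lists on each array (y axis, log2 of signal + 16), all members with a probe set included. Blue, orange and grey are BL6, FVB/N and SV129, filled marks hypoxic, open marks normoxic, squares the arrays with kidney transcripts. The airway secretory, ciliated, alveolar macrophage, type I interferon and alveolar type 2 lists are higher in BL6 without overlap with FVB/N. The neutrophil list is higher in FVB/N without overlap, by a narrow margin (highest BL6 array 8.31, lowest FVB/N array 8.36). The kidney list stands at 10.97 and 12.07 on the square marks.

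Of 24 type I interferon genes 2 passed, both higher in BL6, against 2.18% called over all genes. The list had 22 differences above 0, beside 48.5% of all genes, with a median of 0.38, or 0.26 over 7 arrays. Ifi27l2a (1.50, limma adjusted p = 0.0175) and the deubiquitinase gene Usp18 (0.93, limma adjusted p = 0.0225) passed over 9 arrays and neither passed over 7. Tap1, a peptide transporter for class I loading, gave 0.85 (limma adjusted p = 0.0386) and was the 1 called gene of 17 in the class I list. Over 7 arrays it gave 0.72 (limma adjusted p = 0.278). None of 12 interferon-inducible GTPase genes passed. Gbp2b, a guanylate-binding protein present only in some strains, was low in both, at 5.72 to 5.89 in BL6 and 4.53 to 5.48 in FVB/N, and read 10.08 to 10.32 in SV129.

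Of 30 tested genes known to vary between inbred strains, a list drawn up with results of these data in view, 2 were higher in BL6 and 4 in FVB/N. Over all genes 2.18% were called, and since known results entered the choice of the list, nothing is read from its share. Hc, which encodes complement C5 and carries a loss-of-function deletion in FVB/N, read 13.13, 13.20 and 13.02 in BL6 and 11.37, 11.35 and 10.54 in FVB/N. The difference was 2.03 ± 0.18 (SE, n = 3 per strain; limma adjusted p = 0.000559), and SV129 read 12.31 to 13.11. Wdfy1, an endosomal adaptor, was lower in BL6 (-1.88, limma adjusted p = 0.000692), and so was Alad, an enzyme of haem synthesis (-0.94, limma adjusted p = 0.0248), which did not pass over 7 arrays.

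Nnt, the mitochondrial transhydrogenase that is deleted in part in some BL6 substrains, read 10.19, 9.66 and 9.74 in BL6 and 10.82, 10.97 and 12.20 in FVB/N. The highest value was on the FVB/N array with kidney transcripts, and the 2 strains did not overlap. Its difference of -1.47 had a limma adjusted p of 0.0547 over 9 arrays, and over 7 arrays it was -1.20 (limma adjusted p = 0.0475). The labels do not name the BL6 substrain.

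Outside these groups the largest difference was that of Ms4a4b, a membrane protein of T cells. It read 10.07, 10.33 and 10.36 in BL6 and 4.29, 4.95 and 4.12 in FVB/N, near an empty signal. The difference was 5.80 ± 0.25 (SE, n = 3 per strain; limma adjusted p = 1.11e-05), and SV129 read 10.44 to 10.90. Trim30d and Trim34a belong to the TRIM proteins, a family of ubiquitin ligases with roles in antiviral defence. Trim30d read 8.32, 8.69 and 9.20 against 4.49, 4.81 and 4.96, a difference of 3.98 (limma adjusted p = 0.000139). Trim34a read 9.88, 10.08 and 10.79 against 5.87, 5.89 and 6.41, a difference of 4.19 (limma adjusted p = 0.000117). A second, dimmer Trim34a probe set gave -1.54 and did not pass, and the mean of both probe sets gave 1.33 (limma adjusted p = 0.0537). Trim30a, a close relative, had a difference of 0.89 (limma adjusted p = 0.389), and Trim12c one of -0.68 (limma adjusted p = 0.376).

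Sox11, a transcription factor of development, read 10.77, 11.23 and 10.06 in BL6 and 6.75, 6.30 and 4.25 in FVB/N, and all 5 of its other tested probe sets were higher in BL6, 3 of them past the threshold. Nxpe4, a member of the neurexophilin-like family, differed by 4.50 ± 0.22 (SE, n = 3 per strain; limma adjusted p = 2.45e-05), and Smim6, a small membrane protein, by 4.02 ± 0.22 (SE, n = 3 per strain; limma adjusted p = 3.97e-05). Prmt8, an arginine methyltransferase best known from brain, read 8.61 to 9.20 in BL6 and 4.19 to 5.90 in FVB/N. In these 4 genes SV129 lay nearer FVB/N.

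On the FVB/N side, Gdpd3, a lysophospholipase D, read 13.52, 13.37 and 12.78 in FVB/N and 8.42, 7.91 and 7.36 in BL6. The difference was -5.33 ± 0.23 (SE, n = 3 per strain; limma adjusted p = 1.11e-05), and SV129, at 12.60 to 12.87, lay with FVB/N. Tmem87a, a Golgi membrane protein, read 10.51, 10.73 and 10.90 in FVB/N and 4.64, 5.87 and 6.28 in BL6. Serpina1b, an alpha-1 antitrypsin, read 9.86, 9.74 and 8.88 in FVB/N and 7.11, 4.45 and 4.38 in BL6. The BL6 value of 7.11 was on the array with kidney transcripts. Mice carry several near-identical copies of that gene, so the copy is uncertain. Tnfrsf14, a receptor that regulates lymphocytes, read 8.29, 8.67 and 8.05 in FVB/N and 5.51, 4.27 and 4.49 in BL6.

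The remaining FVB/N-high genes differed by -2.19 to -2.96. Ap1s3, a subunit of a vesicle adaptor complex, differed by -2.96 (limma adjusted p = 0.000215) and lies beside Wdfy1 on chromosome 1. The histone gene H2bc18 (-2.79), the pentraxin Nptx1 (-2.69), the endothelial protein C receptor Procr (-2.63) and the actin regulator Cap1 (-2.46) followed. Cathepsin E (Ctse, -2.38), a protease of the endosome, and the Wnt inhibitor Wif1 (-2.19) completed the list. A second Ctse probe set gave -0.15 and did not pass.

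**Figure D5:**
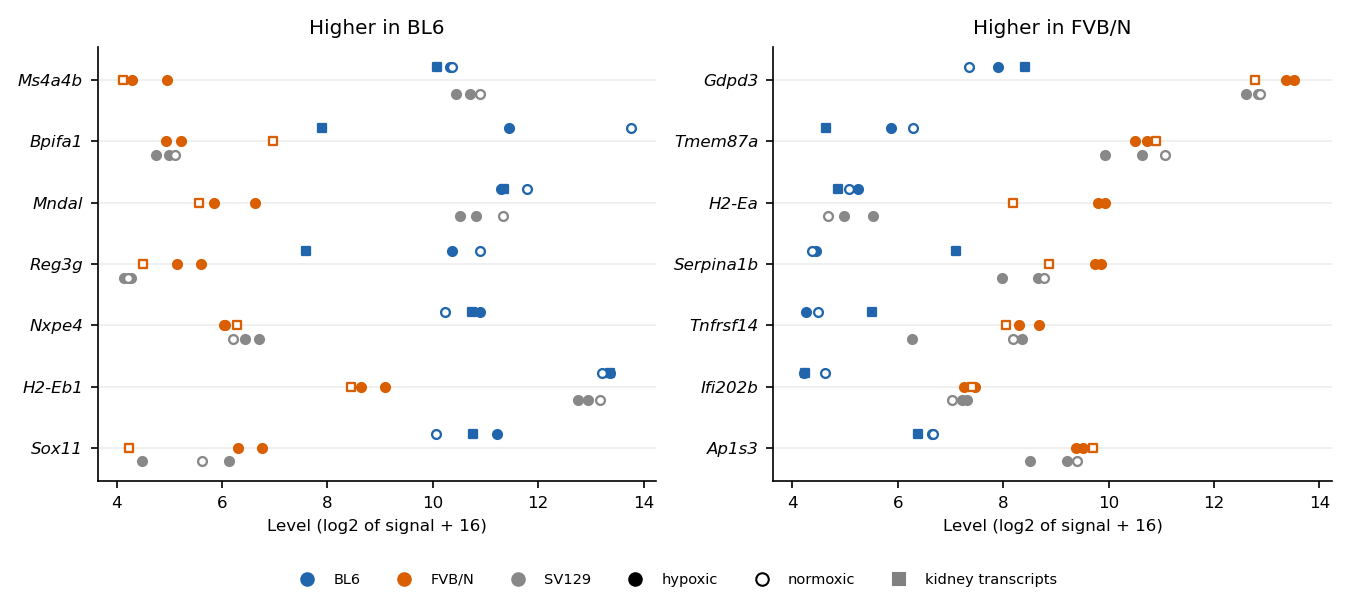
Level on each array (x axis, log2 of signal + 16) of the 7 genes with the largest differences in each direction. Colours are strains, filled marks hypoxic, open marks normoxic and squares the arrays with kidney transcripts. In every gene shown the 3 BL6 arrays lie apart from the 3 FVB/N arrays, as the rule for choosing them requires.

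Several called genes outside the cell-type groups have roles in lung matrix, detoxification and stress. Mmp3, a matrix protease, read 9.32, 9.61 and 10.40 in BL6 and 6.85, 7.24 and 7.14 in FVB/N, a difference of 2.70 ± 0.24 (SE, n = 3 per strain; limma adjusted p = 0.000522). With elastin (Eln, 0.99) and Mmp14 (1.02) it made up the 3 called genes of 32 matrix genes, all higher in BL6, against 2.18% called over all genes, and Mmp3 alone passed over 7 arrays. Cyp1a1, the cytochrome induced through the aryl hydrocarbon receptor, differed by 2.63 (limma adjusted p = 0.00638), at 8.64, 9.30 and 10.76 in BL6 and 6.88 to 7.01 in FVB/N. Gsto1, a glutathione transferase, differed by 1.60 (limma adjusted p = 0.00382). These were 2 of 42 detoxification genes (4.76%), against 2.18% over all genes, so the list's share was not far from the background.

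Egr1, an immediate early transcription factor, was lower in BL6 (-2.13 ± 0.31 SE, n = 3 per strain; limma adjusted p = 0.00795) and was the 1 called gene of 22 in its list. It read 10.67, 10.38 and 10.38 in BL6, 11.88, 12.75 and 13.18 in FVB/N and 13.79 to 14.51 in SV129. Hbb-b2, a beta globin gene, was lower in BL6 (-1.73, limma adjusted p = 0.00685), but not past the threshold over 7 arrays. Mcm6, a replication helicase subunit, was the 1 called gene of 20 cell cycle genes (1.36, limma adjusted p = 0.0175; 0.0741 over 7 arrays). For lists of 20 and 22 genes, 1 called gene is near the 2.18% called over all genes.

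The lists closest to the exposure held no called gene, which for lists of this size is near the 2.18% called over all genes. None of 23 hypoxia-inducible factor targets and glycolysis genes passed, with a median of -0.03 over 9 arrays and 0.09 over 7. Vegfa (0.12), which encodes a vascular growth factor, changed sign under some settings, from -0.25 to 0.30, and Slc2a1 (0.19), a glucose transporter, did not. None of 26 genes of vascular tone and pulmonary hypertension passed, with a median of -0.03 over 9 arrays and -0.13 over 7. Edn1, which encodes the vasoconstrictor endothelin-1, gave -0.86 (limma adjusted p = 0.111) over 9 arrays and passed over 7, at -1.19 (limma adjusted p = 0.0451). Of the 35 lists, 17 held at least 1 called gene and 18 held none.

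Whether the strain difference changed with hypoxia was asked through an interaction term. It rests on 1 normoxic array per strain, and both kidney-bearing arrays enter it. No probe set passed an adjusted p of 0.05 in limma, while 4623 (17.1%) had an unadjusted p below 0.05. The 5 genes with the smallest p were Mylpf, a fast muscle myosin light chain, Acy1, an aminoacylase of kidney, the chemokine Ccl28, the polyamine enzyme Odc1 and the membrane protein Mal. All 5 were highest on normoxic FVB/N array 1, Mylpf at 11.17, with a highest value elsewhere of 7.19, and Acy1 at 12.26, with a highest value elsewhere of 8.66. The count was 448 with median centring in place of quantile normalization, 808 without hypoxic BL6 array 5 and 315 without hypoxic BL6 array 2, the array that carries kidney transcripts. With the mean level of the kidney genes as a covariate, 503 probe sets had an unadjusted p below 0.05 in place of 4623, none passed the adjusted threshold in limma, and the smallest adjusted p was 1. Each normoxic array is alone in its group, so the slope of that covariate rests mainly on the hypoxic BL6 arrays, at 10.97 and 5.99. The covariate thus lies close to the interaction term and widens its error. The lower count is therefore not read as the part of the kidney transcripts, and the part of the muscle transcripts was not tested. Each of the 28 named genes had the same direction among the hypoxic and among the normoxic arrays, which their selection without overlap fixed in advance.

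Single arrays decided some calls, with every direction kept. Bpifa1 missed the threshold without hypoxic BL6 array 5 (4.72, limma adjusted p = 0.11), normoxic BL6 array 1 (4.31, 0.0903), hypoxic FVB/N array 2 (5.43, 0.0788) or hypoxic FVB/N array 6 (5.27, 0.0742). Reg3g missed it without 3 of these, at limma adjusted p values of 0.0789, 0.0648 and 0.0557 in that order. Tnfrsf14 missed it without any of the 4, at limma adjusted p values from 0.0544 to 0.07, and Serpina1b without normoxic BL6 array 1 (0.0565) or hypoxic FVB/N array 2 (0.0531). Without hypoxic BL6 array 5, limma adjusted p values were 0.0506 for H2-Aa, 0.102 for Ctss, 0.168 for Muc4, 0.0503 for Cfap52, 0.0778 for Csf3r, 0.052 for Egr1 and 0.0697 for Retnla. Without normoxic BL6 array 1 they were 0.0791 for Ctss, 0.174 for Muc4, 0.0691 for Csf3r and 0.058 for Retnla. Muc4 missed the threshold without any 1 of the SV129 arrays too, at limma adjusted p values from 0.0598 to 0.0711, and without hypoxic FVB/N array 6 (0.0813). Csf3r did so without hypoxic BL6 array 2 (0.0541) or hypoxic FVB/N array 2 (0.066), and Ctss without the latter (0.0677).

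Where SV129 stood was read from its own arrays. Of the 105 genes higher in BL6 in both fits, 66 had the SV129 mean nearer BL6 (62.9%), and of the 39 higher in FVB/N, 12 did (30.8%), beside 53.8% of all tested genes. Among the 28 genes with the largest differences the SV129 mean was nearer FVB/N in 11 of 14 in each direction. Over probe sets SV129 differed from BL6 in 678 (2.51%) and from FVB/N in 780 (2.89%), comparisons that share their SV129 arrays. The exceptions were Ms4a4b, Mndal and H2-Eb1 on one side, and on the other they included H2-Ea and Wif1.

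The call was also read from other probe sets of the same gene. Of 174 further probe sets of called genes, 142 (81.6%) had the direction of the brightest one, and 45 of them passed. A single one passed against it. The share was 82.3% for genes higher in BL6 and 79.5% for those higher in FVB/N. Their median difference was 0.505 of that of the brightest probe set. Over all probe sets 2.08% were called, and the share of matching directions over all genes was not computed.

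Called genes were placed by RefSeq order on the chromosomes. Of 280 placed, 35 (12.5%) had another called gene as the next tested gene on either side, beside 4.27% of all 12875 placed genes, and 20 (7.14%) had one in the same direction. Of the called genes, 16 had a called neighbour in the opposite direction, such as H2bc18 with Fcgr1 and Rpgrip1 with Supt16. Runs in the same direction included Bpifa1 with Bpifb1, Ap1s3 with Wdfy1, Ctsk with Ctss, and H2-Aa with H2-Eb1, which is followed by H2-Ea in the opposite direction. The share of called genes was 4.16% on chromosome 14, 3.38% on chromosome 6 and 0.763% on the X chromosome (3 of 393).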

How the data were processed

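Total RNA of right lung was hybridised to one-colour Affymetrix arrays, and the authors deposited 1 linear intensity per probe set and array. Of the software behind these intensities, the sources used here name none. Each of the 9 columns has a mean of 500 after leaving out the top and bottom 2%. The series text mentions another 12 arrays, which were not analysed here. Intensities were taken as log2(signal + 16) and quantile-normalized, and 64 control probe sets and the dimmest 40% were left out, which left 27023. limma 3.58.1 (R 4.3.3) was fitted with strain and condition over 9 arrays (5 residual degrees of freedom) and over 7 (3), with an intensity trend and Benjamini-Hochberg adjustment. Of 45037 probe sets, 34945 had 1 gene symbol, 932 several and 9160 none, and 34741 gene identifiers matched RefSeq. The fit was tested on simulated data with 200 of 27023 probe sets changed. Over 9 arrays it recovered 13% of those changed by 1 log2 unit and 92% of those changed by 2, and over 7 arrays 6.5% and 88%. Unchanged probe sets were called too. Over 9 arrays there were 5 false calls beside 26 recovered at 1 log2 unit, and 7 beside 184 at 2. Over 7 arrays there were 5 beside 13, and 20 beside 176. The share of false calls was thus not held below 0.05 in every run. The genes named are the 14 largest in each direction by the smaller of their differences over 9 and 7 arrays, past the threshold in both and without overlap, leaving out clone names, plus list members and the 5 genes with the smallest interaction p. The comparison and the lists were chosen with earlier results of these data known. Promoters come from RefSeq, build GRCm38.p6. Alternatives covered scaling, pseudocount, filter, variance model, arrays left out and probe set choice. One gene that the rule names is not reported here.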

Additional observations from a re-analysis of the deposited data

Results flagged for a closer look

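The strain difference pointed one way among the hypoxic arrays and the other way between the normoxic arrays for 5 genes and 11 lists that the report describes; none of the genes passed the interaction test. The log2 difference was -2.09 among hypoxic and 0.35 between normoxic arrays for Cxcr2 (limma adjusted p of the interaction = 0.113), and -2.26 and 0.24 for Cd4 (limma adjusted p = 0.171). It was -0.243 and 0.84 for Vegfa (limma adjusted p = 0.111), -0.21 and 0.559 for Pecam1 (limma adjusted p = 0.502), and 0.0351 and -0.176 for Sftpc (limma adjusted p = 0.482).

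For the mean levels of lists the difference between conditions was not tested. It was -0.4 and 0.421 for the T and NK cell list, -0.301 and 0.419 for the endothelial list, -0.391 and 0.141 for mesothelium, and -0.174 and 0.24 for chemokines. It was -0.244 and 0.2 for vascular tone, 0.156 and -0.321 for hypoxia-inducible factor targets and glycolysis, and 0.541 and -0.296 for cytochrome P450 and detoxification. It was -0.0866 and 0.105 for known strain variants and -0.258 and 0.314 for the sex-linked genes. For brown fat and fast skeletal muscle it was 0.567 and -2.86, and for liver 0.61 and -0.0132. The normoxic values rest on 1 array per strain, and the FVB/N one carried kidney and muscle transcripts.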

How the results depend on the processing

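Among the 28 largest differences and the called list members, none changed its sign under any alternative run. The other called genes were not followed 1 by 1. Differences that were not called did change sign, for Vegfa (-0.25 to 0.30), Ager (-0.18 to 0.15) and Sftpc (-0.26 to 0.04) among others. Of the 28 largest differences, 28 remained called under both other scalings, 25 on the 6 arrays alone and 27 with probe sets averaged. All 28 were also called without the kidney-bearing arrays, but their selection required this. The same holds in part for the 4 other arrays of both strains, where 28 were called, since these arrays entered that selection. The count of called probe sets, 561, became 372 with a 60% filter, 2199 with array weights, 334 without both kidney-bearing arrays, 1036 with the kidney level as a covariate, 351 on the 6 arrays alone and 308 on 4. Array weights also took the share higher in BL6 from 73.4% to 54.9%, and leaving out normoxic FVB/N array 1 took it to 59.7%, with 429 higher in BL6 and 289 in FVB/N. Leaving out 1 array gave 255 (hypoxic BL6 array 5) to 718 (normoxic FVB/N array 1), with 326 without hypoxic FVB/N array 2 and 299 without normoxic BL6 array 1. For genes, 281 became 1098 with array weights, 183 without both kidney-bearing arrays, 541 with the covariate, 180 on 6 arrays and 162 on 4, and 124 to 376 on leaving out 1 array. Called in both fits, 271 became 174 with the 60% filter and 1085 with array weights. The interaction count of 0 became 448 with median centring and 8 with a pseudocount of 64, and ran from 0 to 808 on leaving out 1 array; without either normoxic array of the 2 strains it could not be fitted. The causes were not tested. At 9 arrays, changes of 1 log2 unit were mostly missed in simulated data (13% recovered), so genes not called may still differ.

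With the array number as a replicate block, 187 probe sets and 99 genes were called, and 24 of the 28 largest differences. Same-numbered hypoxic arrays did not deviate together (correlations -0.03, -0.04 and -0.19), so the numbers were not taken to pair the arrays.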

Other observations

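Klra8, a receptor of natural killer cells known to be present in BL6 and absent from many other strains, was under the brightness limit and entered no test. It read 7.17, 7.21 and 7.61 in BL6, 4.25 to 4.38 in FVB/N and 4.23 to 5.60 in SV129. The BL6 arrays lay above the other 6. Its probe set is of a kind that can bind related transcripts.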
